A study of Mus musculus with 54 samples.

Results

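Otx2, Fgf5, Pou3f1 and Zic2 are genes that mark the primed epiblast, and their expression was followed in murine embryonic stem cells (ESCs) and in the embryoid bodies (EBs) made from them. The genes were chosen by name. Every probe set of the array annotated to one of these symbols alone was collected, and for each gene the probe set with the highest mean over all 54 arrays was used. The 4 genes stand among 14104 genes that have a probe set of their own, and 6 of the 30939 probe sets in the table belong to them. The cells were CGR8, a male ESC line of strain 129, in 3 versions. KD cells held a stable short hairpin RNA (shRNA) against Mageb16, a gene of the melanoma antigen family. SCR cells held a scrambled shRNA from the same kind of retroviral plasmid, and WT cells were the untransfected parent line. KD and SCR cells were taken through puromycin selection as polyclonal populations, and WT cells were not. Each line was sampled undifferentiated (day 0) and as hanging-drop EBs on days 2, 4, 12, 15 and 22, with 3 arrays for each of the 18 groups.

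When the mouse epiblast implants, its cells leave the naive state and pass through a formative stage to the primed state, from which the germ layers arise. ESCs in culture resemble the naive stage, and EBs pass through a like transition soon after the maintenance factors are taken away. Otx2 is a homeodomain transcription factor that directs the pluripotency factor Pou5f1 to new enhancers during this transition, and it is later needed for forebrain and midbrain. Fgf5 encodes a secreted fibroblast growth factor and is a classical marker of the postimplantation epiblast. Pou3f1 encodes a POU domain transcription factor of the epiblast and of later neural progenitors and Schwann cells. Zic2 encodes a zinc finger transcription factor that occupies enhancers in the primed state and is later expressed in the neural plate and the dorsal neural tube.

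In the RefSeq annotation of GRCm38.p6, Otx2 lies at chr14:48656781-48667644, Fgf5 at chr5:98254184-98277033, Pou3f1 at chr4:124657646-124660655 and Zic2 at chr14:122475384-122480328. Promoter sequences from RefSeq, from 250 bases before to 50 bases after a start site, were matched for 2 of the 4 genes, with 4 windows for Otx2 and 1 for Fgf5. Those of Pou3f1 and Zic2 are not shown. The pair below is shown because 3 of the 4 genes encode DNA-binding proteins and the 4 genes moved together over much of the time course. The first is the one Otx2 window that held a searched motif, at chr14:48665060-48665359 on the minus strand, and the second is the Fgf5 window, at chr5:98253934-98254233 on the plus strand. Capitals mark the motif match, and no other base is in capitals.
Otx2 window: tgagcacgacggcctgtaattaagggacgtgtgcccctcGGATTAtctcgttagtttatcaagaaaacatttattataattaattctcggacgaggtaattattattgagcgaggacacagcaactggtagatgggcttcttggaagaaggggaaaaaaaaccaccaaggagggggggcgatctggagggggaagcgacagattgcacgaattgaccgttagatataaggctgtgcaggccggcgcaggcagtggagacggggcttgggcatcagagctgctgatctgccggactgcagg
Fgf5 window: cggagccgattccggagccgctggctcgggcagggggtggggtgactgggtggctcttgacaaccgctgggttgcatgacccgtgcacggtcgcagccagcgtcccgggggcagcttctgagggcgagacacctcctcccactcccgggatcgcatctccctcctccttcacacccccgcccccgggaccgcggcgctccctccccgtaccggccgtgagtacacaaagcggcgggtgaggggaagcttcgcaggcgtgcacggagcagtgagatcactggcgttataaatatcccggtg

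Both strands were searched for TAATCC, the core bound by Otx2-type homeodomains, for ATGCAAA, the first bases of the octamer bound by POU proteins, and for CAGCAGG, a core of the Zic site. None of these 3 motifs contains another. The single match was GGATTA, the reverse complement of TAATCC, which began 211 bases before the Otx2 start site. Over all 32851 windows of the same length, 7.06% held TAATCC, 4.63% held ATGCAAA and 10.5% held CAGCAGG on either strand. A match of this kind is a description of letters and not of binding. The Fgf5 window was rich in G and C at 68.3%, with 29 CpG dinucleotides, and the Otx2 windows ran between 41.7% and 53.7%, with 6 to 16 CpG dinucleotides. The medians of all windows were 52.7% and 7 CpG dinucleotides.

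The array values are log2 signals after robust multi-array averaging (RMA), and a difference of 1 is 2-fold. Over the series they lay between 1.65 and 14.03, with array medians of 5.94 to 6.26, and arrays of a group correlated at 0.986 to 0.997. The targeted gene Mageb16 lay between 3.49 and 7.43 in KD arrays, between 8.87 and 10.15 in SCR arrays and between 6.98 and 9.99 in WT arrays. It was lower in KD than in SCR and WT arrays on every day, with no overlap on any day. Mageb16 was also called higher in SCR than in WT arrays, by 1.19 log2 at day 2 and by 2.47 at day 4 (7.16, 6.98 and 6.98 in WT arrays of day 4). Replicate 3 lay between replicates 1 and 2 in 28.3% to 55.2% of all probe sets, the largest share of the 3 replicates in 17 of 18 groups. For the 4 genes this held in 16 groups for Otx2, 10 for Fgf5, 15 for Pou3f1 and 14 for Zic2. It is not stated if replicates were cultured apart, and p-values then measure only the spread between these arrays. If replicate 3 is not independent of the others, the errors given are too small, and calls of the 4 genes lost without it are named. Naive pluripotency genes were high at day 0 in every line, with list medians of 10.5, 10.8 and 10.7 log2 in KD, SCR and WT arrays.

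Differences were tested with limma on all probe sets and all 54 arrays, and a change is called where the Benjamini-Hochberg adjusted p is under 0.05 and the change is at least 2-fold. Values are means with the standard error of the fit, over 3 arrays a group. The arrays measure RNA of whole EBs, so fewer cells of a type and less RNA per cell cannot be told apart.

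At day 0 the 4 genes were at similar levels in the 3 lines, apart from a somewhat higher Otx2 in KD ESCs. Otx2 read 8.44, 7.82 and 8.17 in KD ESCs, 7.61, 6.90 and 7.31 in SCR ESCs and 7.63, 7.19 and 7.32 in WT ESCs. All 3 KD arrays were above all SCR and WT arrays. The difference was 0.87 ± 0.24 log2 against SCR (adjusted p = 0.00973) and 0.76 ± 0.24 against WT (adjusted p = 0.0254), both short of 2-fold. Against SCR it passed 2-fold when SCR replicate 1 or KD replicate 2 was left out (1.04 and 1.03). Fgf5 read 3.69, 3.50 and 4.01 in KD, 3.28, 4.04 and 3.47 in SCR and 3.87, 3.90 and 3.91 in WT ESCs, all under the lower quartile of every array (4.23 to 4.51), and the lines overlapped. Pou3f1 and Zic2 also overlapped between lines, with Pou3f1 at 5.82 to 6.56 in KD, 5.36 to 6.14 in SCR and 5.64 to 6.66 in WT ESCs. Zic2 had 5.53 to 6.35 in KD, 4.43 to 6.10 in SCR and 5.44 to 6.57 in WT ESCs, and the SCR arrays had the widest spread. Without SCR replicate 1, Zic2 passed as higher in KD than in SCR ESCs (1.01 log2). Of the 4 genes 0 were called at day 0 between KD and SCR, where 0.924% of all probe sets were called, 0 between KD and WT (1.05%) and 0 between SCR and WT (0.627%).

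**Figure D1:**
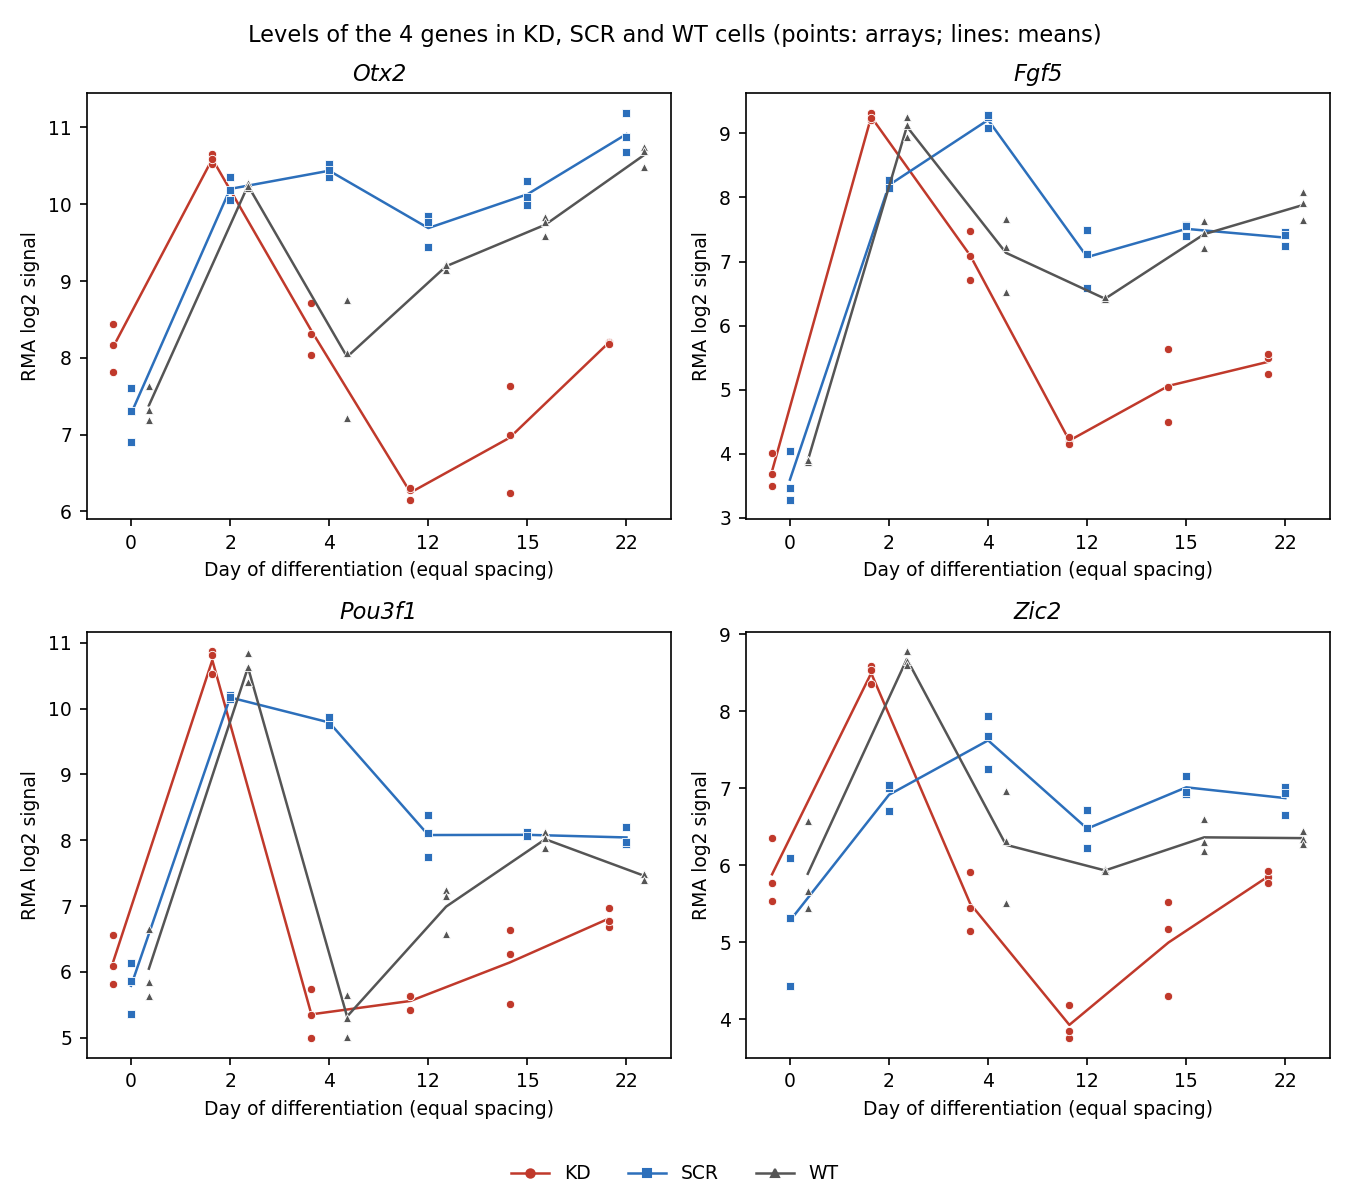
RMA log2 signal of Otx2, Fgf5, Pou3f1 and Zic2 (y axis) against day of differentiation (x axis, days equally spaced) in KD, SCR and WT cells, with 1 point per array and lines through the means of 3 arrays. All 4 genes were higher at day 2 than at day 0 in every line, SCR EBs alone stayed near their day 2 level or above at day 4, and from day 12 the KD line was the lowest.

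By day 2 all 4 genes, chosen as markers of the primed state, had risen in every line. All 4 were called higher in KD, SCR and WT EBs, where 5.65%, 4.82% and 5.66% of all probe sets were called higher. Fgf5 changed most. It read 9.32, 9.21 and 9.24 in KD EBs, 8.16, 8.27 and 8.15 in SCR EBs and 8.94, 9.13 and 9.25 in WT EBs at day 2. KD and WT arrays overlapped, and all SCR arrays lay below both. The rise over day 0 was 5.52 ± 0.22 log2 in KD (46.0-fold), 4.60 ± 0.22 in SCR (24.2-fold) and 5.21 ± 0.22 in WT EBs (37.1-fold). With its dimmer probe set the rise was 2.69 log2 in KD, 1.52 in SCR and 2.22 in WT EBs. That was less than the rise of Otx2 in SCR (2.93) and WT EBs (2.86), so the size and rank of the Fgf5 change depend on the probe set.

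Pou3f1 followed with rises of 4.58 ± 0.23 log2 in KD (23.9-fold), 4.38 ± 0.23 in SCR (20.8-fold) and 4.58 ± 0.23 in WT EBs (2.65, 1.95 and 2.16 with its dimmer set). At day 2 its arrays read 10.87, 10.52 and 10.82 in KD, 10.20, 10.14 and 10.17 in SCR and 10.84, 10.41 and 10.63 in WT EBs, so that SCR was again lowest and KD overlapped WT. Otx2 read 10.66, 10.52 and 10.59 in KD EBs, 10.36, 10.05 and 10.19 in SCR EBs and 10.21, 10.28 and 10.24 in WT EBs. The KD arrays were all above the others, by 0.39 ± 0.24 log2 over SCR (adjusted p = 0.262), a difference short of the threshold. Zic2 read 8.59, 8.36 and 8.54 in KD EBs, 6.71, 7.0 and 7.04 in SCR EBs and 8.66, 8.60 and 8.78 in WT EBs. All SCR arrays lay over 1 log2 below the other lines, and the KD arrays lay just under the WT arrays. The rise of Zic2 over day 0 was 2.61 ± 0.30 log2 in KD, 1.64 ± 0.30 in SCR and 2.79 ± 0.30 in WT EBs.

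Between lines at day 2, SCR EBs were the ones that stood apart. Against SCR, KD EBs had 2 of the 4 genes called higher, where 1.76% of probe sets were called higher: Zic2 by 1.58 ± 0.30 log2 (adjusted p = 7.75e-05) and Fgf5 by 1.06 ± 0.22 (adjusted p = 0.000231). The Fgf5 call was near the 2-fold limit and was lost without the replicate 3 arrays (adjusted p = 0.0564) and with the dimmer Fgf5 probe set (0.96 log2). Against WT, KD EBs had 0 called (0.666% of probe sets), with differences between −0.18 and 0.35 log2. SCR EBs had 1 called lower than WT (1.29%), Zic2 by −1.76 ± 0.30 log2 (adjusted p = 2.72e-05), and Fgf5 was 0.91 ± 0.22 log2 lower in SCR (adjusted p = 0.00222), short of 2-fold. The steps between days 0 and 2 of KD and SCR did not differ past the threshold for any of the 4 genes (0 called, 3.31% of probe sets), and neither did those of KD and WT (0 called, 0.679%). The KD and SCR comparison was close to the threshold for Fgf5 and Zic2. The step of Fgf5 passed as larger in KD without KD day 0 replicate 3 or SCR day 0 replicate 1 (1.06 and 1.08 log2), with the mean of its probe sets (1.04) and with the dimmer set (1.16). That of Zic2 passed with array weights (1.02) and without SCR day 0 replicate 2 (1.40). The estimate of the array weights stopped short of convergence, with 8.64e-15 for SCR day 22 replicate 3 and 45.2 for WT day 0 replicate 3.

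At day 4 the lines parted. All 4 genes fell in KD and WT EBs between days 2 and 4, and none was called lower in SCR EBs. Pou3f1 showed this most. It read 5.74, 4.99 and 5.34 in KD EBs and 9.75, 9.75 and 9.87 in SCR EBs, and WT EBs had 5.65, 5.02 and 5.30. KD and WT arrays overlapped throughout, and the SCR arrays lay about 4 log2 above both. The drop since day 2 was −5.38 ± 0.23 log2 in KD (41.6-fold) and −5.30 ± 0.23 in WT (39.5-fold), against −0.38 ± 0.23 in SCR EBs (adjusted p = 0.195).

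Otx2 read 8.71, 8.04 and 8.31 in KD EBs, 10.35, 10.52 and 10.44 in SCR EBs and 8.76, 7.22 and 8.06 in WT EBs at day 4. The KD range lay within the WT range, whose replicate 2 was low, and all SCR arrays were above. Fgf5 read 7.48, 6.71 and 7.09 in KD EBs, 9.08, 9.26 and 9.29 in SCR EBs and 7.66, 6.53 and 7.22 in WT EBs, again with KD inside the WT range and SCR apart. Zic2 read 5.91, 5.15 and 5.44 in KD EBs, 7.25, 7.94 and 7.68 in SCR EBs and 6.97, 5.51 and 6.32 in WT EBs. KD and WT overlapped here by KD replicate 1 and WT replicate 2, and SCR lay above both. Since day 2, 4 of 4 genes were called lower in KD (5.01% of probe sets) and 4 of 4 in WT (5.71%). In SCR EBs 0 were called lower (1.33%) and 1 higher (4.42%), Fgf5 by 1.02 ± 0.22 log2, a call lost without SCR day 4 replicate 2 or 3 or SCR day 2 replicate 3 (0.99, 0.98 and 0.99 log2), with arrays centred on their medians (0.90), and without all replicate 3 arrays (0.95, adjusted p = 0.0530).

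KD EBs were lower than SCR EBs in 4 of 4 genes at day 4, where 4.81% of probe sets were called lower. The log2 differences were −4.43 ± 0.23 for Pou3f1 (adjusted p = 1.10e-19), −2.12 ± 0.30 for Zic2, −2.12 ± 0.22 for Fgf5 and −2.08 ± 0.24 for Otx2, a median of −2.12 beside 0.00 over all probe sets. SCR EBs were higher than WT EBs in the same 4 genes (4.54% called higher), by 4.47 ± 0.23 log2 for Pou3f1, 2.42 ± 0.24 for Otx2, 2.07 ± 0.22 for Fgf5 and 1.36 ± 0.30 for Zic2. These comparisons share the SCR arrays. Between KD and WT, 0 of 4 were called (0.242% of probe sets), with intervals of −0.15 to 0.83 log2 for Otx2, −0.49 to 0.40 for Fgf5, −0.43 to 0.50 for Pou3f1 and −1.38 to −0.15 for Zic2. Zic2 rested on WT replicate 2: without that array KD was called lower than WT (−1.15 log2, adjusted p = 0.0386), and the SCR against WT difference fell just short of 2-fold (0.98). The steps themselves differed between KD and SCR for all 4 genes (4.85% of probe sets called lower), by −5.00 ± 0.33 log2 for Pou3f1, −3.70 ± 0.43 for Zic2, −3.18 ± 0.31 for Fgf5 and −2.47 ± 0.34 for Otx2. Against WT the step differed for 0 genes (0.488%).

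**Figure D2:**
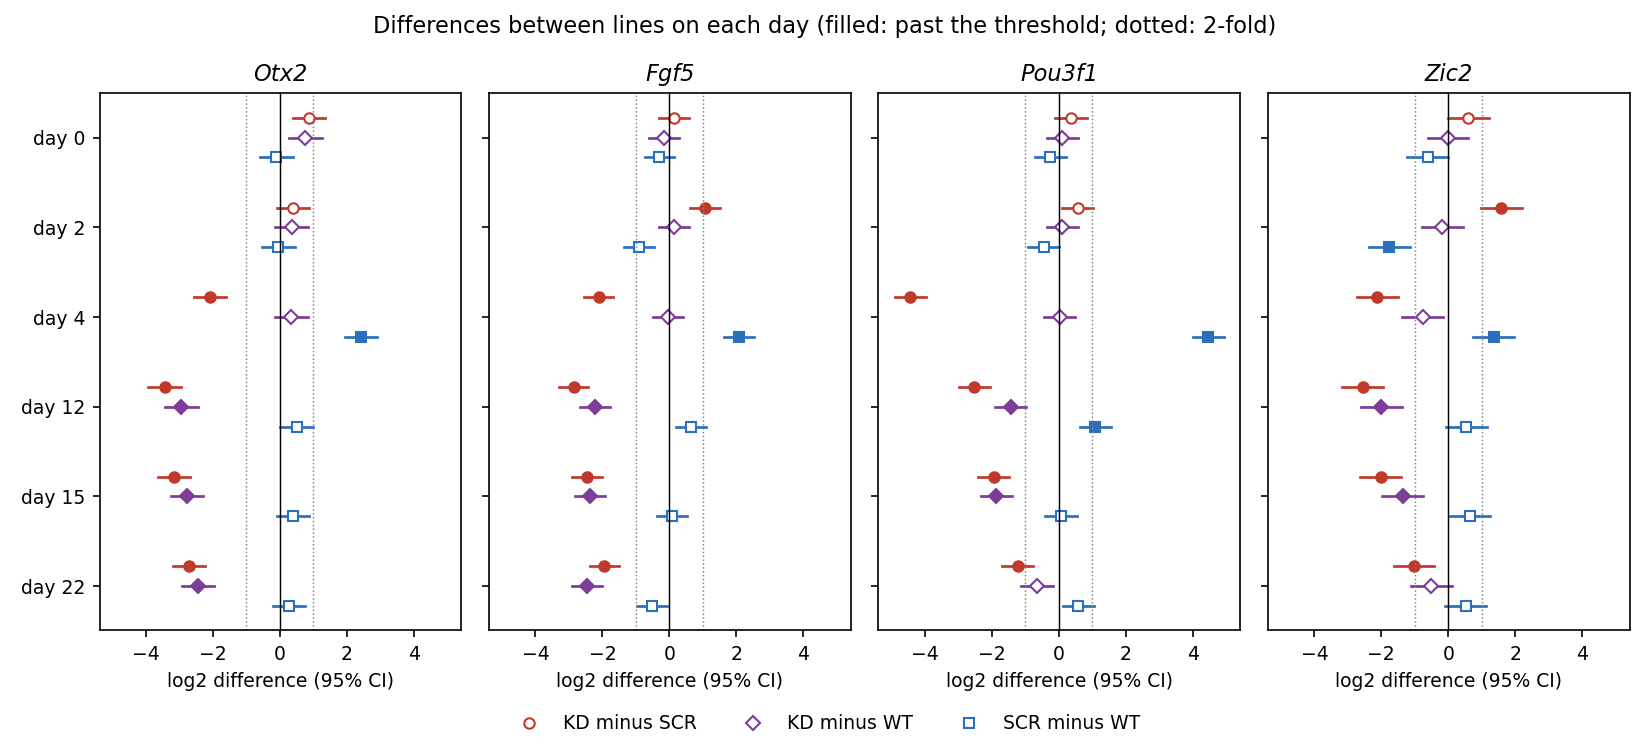
Log2 differences KD minus SCR, KD minus WT and SCR minus WT (x axis, points, with 95% confidence intervals as bars) for each gene on each day (y axis), where filled points passed an adjusted p under 0.05 and 2-fold and dotted lines mark 2-fold. At day 4 the comparisons with SCR lie far from 0 and KD minus WT does not, and from day 12 both comparisons of KD lie below 0.

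From day 12 it was the KD line that stood apart. SCR and WT EBs had all 4 genes at intermediate or high levels, and KD EBs had them low. Otx2 at day 12 read 6.28, 6.31 and 6.15 in KD EBs, 9.45, 9.85 and 9.77 in SCR EBs and 9.22, 9.15 and 9.21 in WT EBs. With 1 KD array of day 15, these KD arrays held the lowest Otx2 values of the series, below every day 0 array. Otx2 was lower in KD by 3.44 ± 0.24 log2 than in SCR (10.9-fold, adjusted p = 1.45e-15) and by 2.95 ± 0.24 than in WT (7.71-fold, adjusted p = 2.06e-13).

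Fgf5 at day 12 read 4.20, 4.16 and 4.26 in KD EBs, 6.59, 7.50 and 7.12 in SCR EBs and 6.41, 6.41 and 6.44 in WT EBs. Zic2 read 3.75, 4.18 and 3.85 in KD EBs, 6.22, 6.72 and 6.49 in SCR EBs and 5.92, 5.95 and 5.93 in WT EBs. No KD array of either gene reached the other lines, and both genes were near or under the lower quartile of the arrays in KD EBs. Pou3f1 read 5.42, 5.63 and 5.63 in KD EBs, 7.75, 8.38 and 8.11 in SCR EBs and 6.58, 7.24 and 7.16 in WT EBs, with all 3 lines apart. All 4 genes were called lower in KD than in SCR (4.42% of probe sets), by −2.52 to −3.44 log2, and lower than in WT (4.2%), by −1.43 to −2.95. SCR and WT EBs differed past the threshold in 1 gene (1.31% called higher), Pou3f1 by 1.09 ± 0.23 log2, and this call was lost without the replicate 3 arrays (adjusted p = 0.0530) or when WT replicate 1 or SCR replicate 2 was left out (0.88 and 0.94).

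The step between days 4 and 12 ran in opposite directions in KD and WT EBs for Otx2. Otx2 fell by 2.11 ± 0.24 log2 in KD and rose by 1.18 ± 0.24 in WT, a difference of −3.29 ± 0.34 (adjusted p = 4.81e-10). The WT rise was under 2-fold without WT day 4 replicate 2 (0.78). Fgf5 fell by 2.89 ± 0.22 log2 in KD EBs, and its WT change was −0.72 ± 0.22, short of 2-fold. Pou3f1 rose by 1.67 ± 0.23 log2 in WT EBs, and its KD change was 0.20 ± 0.23. Zic2 fell by 1.57 ± 0.30 log2 in KD EBs, with a WT change of −0.33 ± 0.30. Over these days 3 of 4 genes were called lower in KD EBs (4.22% of probe sets) and 2 of 4 higher in WT EBs (6.75%). The KD step was lower than the WT step in all 4 genes (4.02% of probe sets). The Zic2 difference, −1.24 ± 0.43, lost its call without WT day 4 replicate 2 (−0.86) or KD day 4 replicate 1 (−1.03), and without the replicate 3 arrays those of Zic2 and Pou3f1 were lost (adjusted p = 0.225 and 0.0666). In SCR EBs, which were high at day 4, the same days brought falls of 2.14 ± 0.22 log2 for Fgf5, 1.71 ± 0.23 for Pou3f1 and 1.15 ± 0.30 for Zic2, and −0.75 ± 0.24 for Otx2, short of 2-fold. That is 3 of 4 called lower, where 1.54% of probe sets were, and the Zic2 call was lost without SCR day 4 replicate 2 (−0.99 log2) or all replicate 3 arrays (adjusted p = 0.114). The steps of KD and SCR differed for 2 of 4 genes (11.3% of probe sets called), lower in KD for Otx2 (−1.36 ± 0.34 log2, adjusted p = 0.109 without the replicate 3 arrays) and higher in KD for Pou3f1 (1.91 ± 0.33), which was already low in KD EBs at day 4.

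At day 15 the KD arrays spread widely, in the same way for each gene. Otx2 read 6.24, 7.64 and 7.0 in KD EBs, 9.99, 10.30 and 10.10 in SCR EBs and 9.84, 9.59 and 9.77 in WT EBs. Fgf5 read 4.49, 5.64 and 5.05 in KD EBs, 7.40, 7.57 and 7.56 in SCR EBs and 7.63, 7.21 and 7.44 in WT EBs. KD replicate 1 was the lowest and replicate 2 the highest KD array for both genes, and SCR and WT overlapped for Fgf5 but not for Otx2. Pou3f1 read 5.51, 6.64 and 6.28 in KD EBs, 8.07, 8.12 and 8.06 in SCR EBs and 8.13, 7.88 and 8.04 in WT EBs. Zic2 read 4.30, 5.52 and 5.17 in KD EBs, 6.93, 7.16 and 6.95 in SCR EBs and 6.60, 6.19 and 6.30 in WT EBs. The order of the KD arrays was the same again, and the highest KD array stayed below every SCR and WT array. All 4 genes were lower in KD than in SCR (5.03% of probe sets) by −1.94 to −3.17 log2, and lower than in WT (7.09%) by −1.37 to −2.77. Between SCR and WT, 0 were called (6.34%).

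The gap between KD and SCR means was smaller at day 22 than at day 12 for all 4 genes. The gap between KD and WT was smaller for all but Fgf5 (KD step minus WT step, −0.24 log2). For Otx2 and Fgf5 these differences in step did not pass the threshold, and for Pou3f1 the difference against WT did not. Otx2 read 8.21, 8.20 and 8.18 in KD EBs, 11.19, 10.68 and 10.87 in SCR EBs and 10.49, 10.75 and 10.69 in WT EBs. Fgf5 read 5.49, 5.25 and 5.56 in KD EBs, 7.25, 7.46 and 7.41 in SCR EBs and 7.65, 8.09 and 7.91 in WT EBs. For these genes KD remained over 1 log2 below the other lines, and the SCR and WT ranges overlapped for Otx2. Pou3f1 read 6.68, 6.97 and 6.78 in KD EBs, 8.20, 7.95 and 7.98 in SCR EBs and 7.49, 7.49 and 7.40 in WT EBs. Zic2 read 5.85, 5.77 and 5.93 in KD EBs, 6.66, 7.02 and 6.94 in SCR EBs and 6.34, 6.28 and 6.44 in WT EBs. For Pou3f1 and Zic2 the KD arrays were lowest, WT lay between and SCR was highest, with no overlap.

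All 4 genes were called lower in KD than in SCR at day 22 (3.84% of probe sets), by −2.72 ± 0.24 log2 for Otx2, −1.94 ± 0.22 for Fgf5, −1.23 ± 0.23 for Pou3f1 and −1.02 ± 0.30 for Zic2. The Zic2 call was at the limit of 2-fold and was lost when SCR replicate 2, SCR replicate 3 or KD replicate 2 was left out (−0.95, −0.99 and −0.98) and without all replicate 3 arrays (adjusted p = 0.0988). The Pou3f1 call was lost with the mean of its probe sets (−0.84 log2), and the Fgf5 call with its dimmer set (−0.96). Against WT, 2 genes were called lower in KD (7.32% of probe sets), Otx2 by −2.45 ± 0.24 log2 and Fgf5 by −2.45 ± 0.22. Pou3f1 was at −0.65 ± 0.23 (adjusted p = 0.0124) and Zic2 at −0.50 ± 0.30 (adjusted p = 0.138). SCR and WT did not differ past the threshold in any of the 4 (0 called, 7.91% of probe sets), with differences of −0.51 to 0.58 log2.

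Within the KD line all 4 genes rose between days 12 and 22 (6.78% of probe sets called higher), Otx2 by 1.95 ± 0.24 log2, Zic2 by 1.92 ± 0.30, Pou3f1 by 1.25 ± 0.23 and Fgf5 by 1.23 ± 0.22. The calls of Pou3f1 and Fgf5 rested on the brighter probe set: they were under 2-fold with the mean of the sets (0.84 and 0.80 log2) and with the dimmer set (0.44 and 0.36). In SCR EBs Otx2 alone rose over these days (1.22 ± 0.24 log2, 4.4% of probe sets called higher), and in WT EBs Otx2 and Fgf5 did (1.45 ± 0.24 and 1.46 ± 0.22, 1.36% called higher). The WT rise of Fgf5 was short of 2-fold with its dimmer set (0.76). The KD step was larger than the SCR step for Zic2 (1.53 ± 0.43 log2) and Pou3f1 (1.29 ± 0.33), 2 of 4 genes beside 4.78% of probe sets called higher, and larger than the WT step for Zic2 (1.50 ± 0.43), 1 of 4 beside 7.91%. These 3 calls were lost without the replicate 3 arrays (adjusted p = 0.211, 0.139 and 0.155). Compared with day 0, day 22 KD EBs had Otx2 at 0.05 ± 0.24 log2, Zic2 at −0.03 ± 0.30 and Pou3f1 at 0.65 ± 0.23, none of them called, and Fgf5 1.70 ± 0.22 higher, 1 of 4 genes beside 18.8% of probe sets called higher. In day 22 SCR EBs all 4 genes were above day 0 (13.5% of probe sets called higher), by 1.59 ± 0.30 log2 for Zic2 up to 3.78 ± 0.22 for Fgf5 (0.71 with its dimmer set). In WT EBs 3 were (8.83%), Otx2 by 3.26 ± 0.24 log2, Fgf5 by 3.99 ± 0.22 and Pou3f1 by 1.41 ± 0.23, and Zic2 was at 0.46 ± 0.30.

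Ordered over the 18 groups, the genes differed in where their peak lay. Fgf5 and Pou3f1 were highest in KD EBs of day 2 (9.26 ± 0.06 and 10.74 ± 0.19 log2, SD, n = 3), and Zic2 was highest in WT EBs of day 2 (8.68 ± 0.09). Otx2 was highest in SCR EBs of day 22 (10.91 ± 0.26), whose arrays overlapped those of WT EBs of day 22 (10.64 ± 0.14), followed by KD EBs of day 2 (10.59 ± 0.07). The lowest group was KD of day 12 for Otx2 (6.25 ± 0.09) and Zic2 (3.93 ± 0.23), undifferentiated SCR cells for Fgf5 (3.60 ± 0.40) and WT of day 4 for Pou3f1 (5.32 ± 0.32). Neighbours in the order overlapped in their arrays at 13 of 17 places for Otx2 and Zic2, 11 for Pou3f1 and 10 for Fgf5. For Pou3f1 the lowest 7 groups, from WT of day 4 up to undifferentiated KD cells at 6.16 ± 0.37, overlapped each with the next, and so did the SCR groups of days 12, 15 and 22 (8.04 to 8.08). For Fgf5 the leading KD group of day 2, SCR of day 4 (9.21 ± 0.11) and WT of day 2 (9.11 ± 0.16) overlapped, and a gap followed before SCR of day 2 (8.19 ± 0.07).

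Fgf5 and Pou3f1 each had a further, dimmer probe set. For Fgf5 it read 7.20, 7.28 and 7.16 in KD EBs, 6.30, 6.05 and 6.40 in SCR EBs and 7.04, 7.10 and 6.95 in WT EBs at day 2, and 5.99, 5.24 and 5.48 in KD, 7.67, 7.48 and 7.37 in SCR and 5.94, 5.20 and 5.52 in WT EBs at day 4. The order of the lines was that of the brighter set on both days. The sets disagreed on the late levels of Fgf5 in every line. Relative to day 0, the dimmer set gave −0.08 and −0.05 log2 in KD EBs on days 15 and 22, where the brighter set gave rises of 1.33 and 1.70. In SCR EBs of days 12, 15 and 22 the dimmer set gave 0.85, 0.72 and 0.71, all short of 2-fold (brighter set 3.47, 3.91 and 3.78). In WT EBs of days 12 and 15 the dimmer set gave 0.38 and 0.74, short of 2-fold (brighter set 2.53 and 3.53), and on day 22 it gave 1.14. For Pou3f1 the dimmer set kept KD below SCR on days 12, 15 and 22 by −0.93, −0.81 and −0.44 log2, all short of 2-fold, and below WT on day 12 by −0.64 log2, also short of it. With the dimmer set Pou3f1 had no call in SCR against WT at day 12 (0.29 log2), in the KD against WT step between days 4 and 12 (−0.68), in the KD against SCR step between days 12 and 22 (0.50), or in day 22 against day 0 in SCR (0.26) and WT (0.18). With the mean of its sets the calls of SCR against WT at day 12 (0.69), of the step between days 12 and 22 (0.89) and of day 22 in WT (0.79) were also lost.

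The 4 genes had similar profiles over the 18 group means, with pairwise Pearson correlations of 0.79 (Fgf5 and Pou3f1) to 0.88 (Pou3f1 and Zic2). The points share lines, days and arrays, and the values are a description. Among 4104 genes whose group means span at least 2 log2, the most alike were Ube2t (0.95), Stx3 and Wdr31 for Otx2, Irf1 (0.95), Mapk12 and Fam184b for Fgf5, Pim2 (0.96), Rimkla and Sox3 for Pou3f1, and Tmem74 (0.93), Pim2 and Zic5 for Zic2. Pim2, which encodes a serine/threonine kinase, stood in the leading lists of both Pou3f1 and Zic2. Its arrays read 7.04, 6.54 and 6.58 in KD EBs, 10.80, 11.04 and 10.92 in SCR EBs and 7.44, 6.35 and 6.82 in WT EBs at day 4, the same arrangement as Pou3f1. Ube2t, a ubiquitin-conjugating enzyme of the Fanconi anaemia pathway, had 7.92, 7.81 and 7.88 in KD EBs, 9.40, 9.72 and 9.65 in SCR EBs and 9.66, 9.24 and 9.63 in WT EBs at day 12, with KD apart as for Otx2.

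The paralogs showed which of these patterns went with the gene family. Zic5, the zinc finger gene next to Zic2 on chromosome 14, shared its course: KD EBs were lower than SCR EBs by −2.71 ± 0.26 log2 at day 4 and −3.14 ± 0.26 at day 12. Zic1, a zinc finger gene of neural and mesodermal tissues, shared this course only in part. As for Zic2, it was higher in KD than in SCR EBs at day 2, by 2.35 ± 0.26 log2. At day 4 it read 6.59, 6.76 and 6.86 in KD EBs, 5.07, 6.11 and 5.71 in SCR EBs and 5.87, 5.83 and 5.63 in WT EBs, and was higher in KD than in SCR by 1.11 ± 0.26 log2. At day 22 it read 10.00, 10.21 and 10.07 in KD EBs, 10.39, 11.22 and 11.05 in SCR EBs and 7.75, 7.33 and 7.44 in WT EBs, so that KD EBs, low for Zic2, were 2.59 ± 0.26 log2 above WT for Zic1. Zic4 stayed at 2.95 to 4.85 in all arrays.

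Otx1, the other Otx gene measured, stayed between 3.01 and 4.61 in KD and WT arrays of all days and was 1.91 ± 0.22 log2 higher in SCR than in WT EBs at day 12. The POU3 genes Pou3f2, Pou3f3 and Pou3f4, which act in neural progenitors, did not show the early rise and fall of Pou3f1. Between days 0 and 2, 0 of 3 were called in any line, where 10.2% to 11.2% of all probe sets were. Between days 2 and 4 it was again 0, where 5.75% to 12.7% were, so the counts are near these shares. Pou3f2 was under the lower quartile in every line on days 0, 2 and 4, and Pou3f3 in all these groups but KD EBs of day 2. Pou3f3 at day 22 read 7.86, 7.82 and 7.62 in KD EBs, 8.98, 9.48 and 9.34 in SCR EBs and 4.76, 4.37 and 4.21 in WT EBs. It was 1.50 ± 0.18 log2 lower in KD than in SCR EBs and 3.32 ± 0.18 higher in KD than in WT EBs, an order of lines unlike that of Pou3f1.

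**Figure D3:**
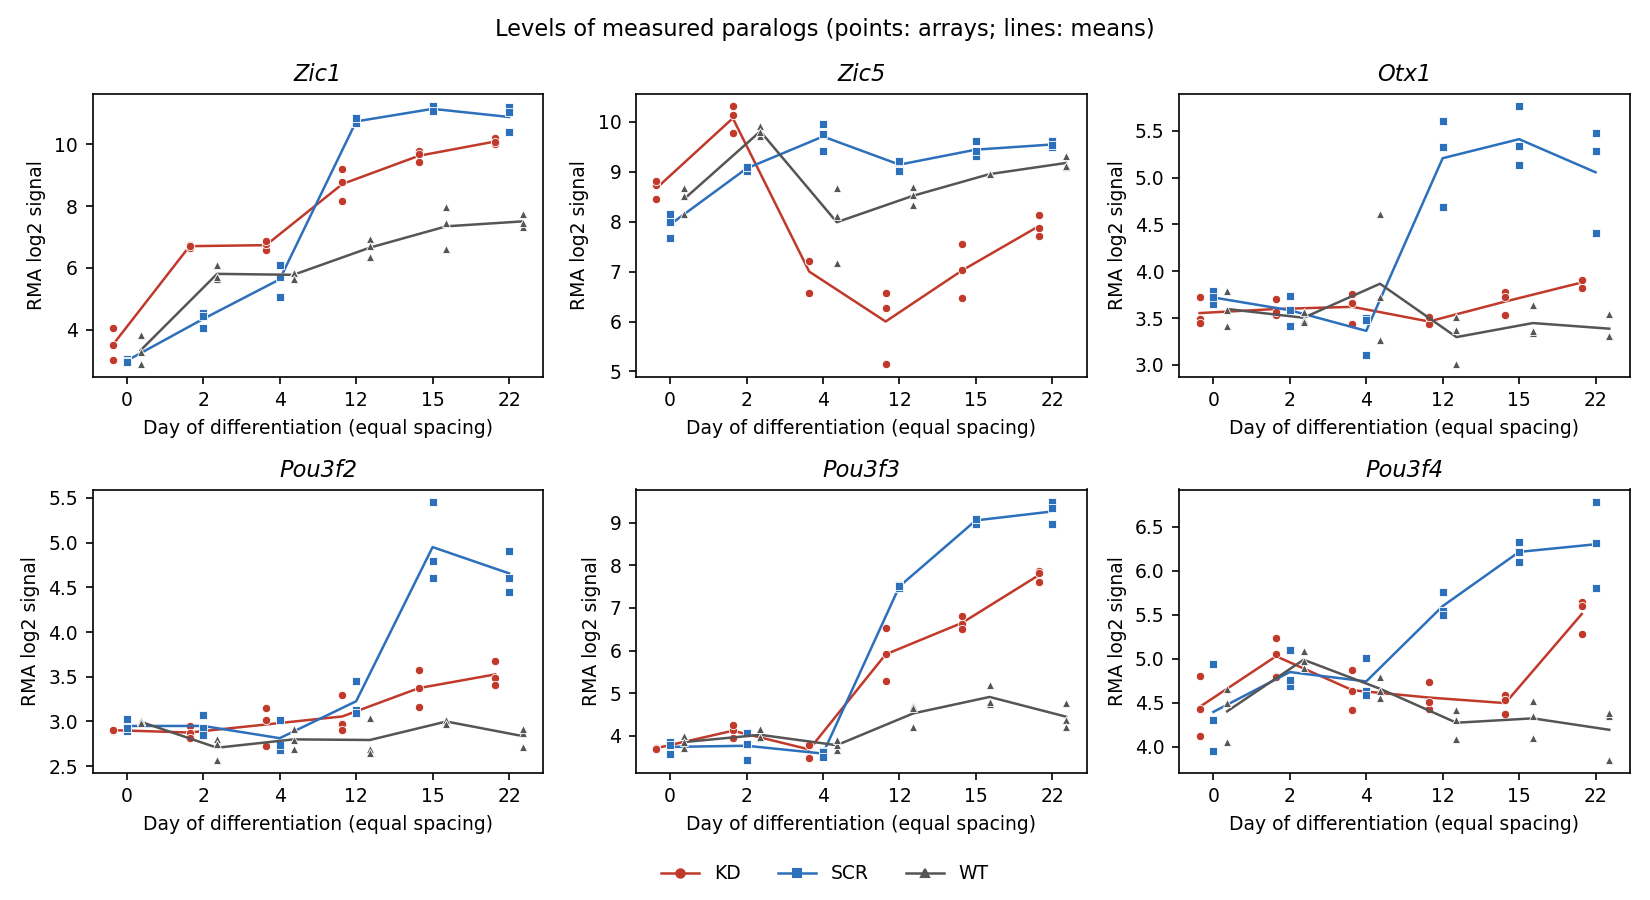
RMA log2 signal of 6 paralogs of the 4 genes (y axis, scale set for each gene) against day of differentiation (x axis, days equally spaced) in KD, SCR and WT cells, with 1 point per array and lines through the means of 3 arrays. Zic5 has the course of Zic2, and Zic1, Otx1 and the POU3 genes have their highest means in SCR EBs from day 12 on.

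Other genes of the formative and primed epiblast shared the course of the 4 genes in part. Of 22 such genes 20 were measured, and the median of all probe sets lay between −0.11 and 0.03 log2 in every comparison of lines. In KD against SCR EBs at day 2, 6 were called higher and 2 lower (1.76% and 1.83% of all probe sets). At day 4, 3 were called higher and 9 lower (4.91% and 4.81%), with a median of −0.86 log2. On days 12, 15 and 22, 13, 13 and 10 were lower (4.42%, 5.03% and 3.84%) and 0 higher (6.65%, 7.55% and 8.54%). The same shares stand beside the KD against SCR counts of the lists below. The genes with the greatest changes on days 2 and 4 were Pim2 (−4.20 ± 0.20 log2 at day 4), Nodal, a TGF-beta family ligand of the epiblast (−3.03 ± 0.12 at day 4), Fst, which encodes the activin antagonist follistatin (4.50 ± 0.29 at day 2), and Nkx1-2, a homeobox gene of the caudal epiblast (3.48 ± 0.20 at day 4). Fst read 9.28, 9.62 and 9.56 in KD EBs, 4.66, 5.27 and 5.04 in SCR EBs and 8.02, 8.68 and 8.57 in WT EBs at day 2, in the same order of KD and SCR as Fgf5 and Zic2 on that day. Nkx1-2 read 7.31, 7.26 and 7.30 in KD EBs, 3.58, 4.22 and 3.62 in SCR EBs and 6.03, 7.15 and 6.92 in WT EBs at day 4, with SCR lowest where the 4 genes had SCR highest.

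Fgf5 signals through FGF receptors, whose activity induces feedback genes. Of 9 feedback genes, 3 were lower and 1 higher in KD than in SCR EBs at day 4, with a median of −0.85 log2. The phosphatase gene Dusp6 was at −2.30 ± 0.18 log2, the ETS factor gene Etv5 at −1.96 ± 0.16 and the inhibitor gene Spry4 at −1.89 ± 0.22, and the immediate early gene Egr1 was at 1.52 ± 0.30. Between KD and WT EBs at day 4, 0 of the 9 were called, where only 0.242% of all probe sets were, so this count does not set them apart. Of the 4 receptors, Fgfr2 (1.43 ± 0.22 log2) and Fgfr3 (1.29 ± 0.16) were higher in KD than in SCR EBs at day 4.

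The pluripotency genes that are switched off in this transition had another course. Of 14 naive genes, 11 were already lower in KD than in SCR EBs at day 2, with a median of −1.65 log2, when none of the 4 primed genes was. At day 4, 12 were lower and 2 higher (median −2.45). Among the lower were Nr0b1 (−4.12 ± 0.21), Fgf4 (−3.47 ± 0.19) and Esrrb (−3.21 ± 0.22), and Tbx3 was higher (3.57 ± 0.19). Against WT, 8 of the 14 were lower in KD at day 2 (median −1.12, 0.621% of all probe sets lower) and 12 at day 12 (median −3.21, 4.2% lower). Of 5 core genes shared by the naive and primed states, 3 were lower in KD than in SCR EBs at day 4, Pou5f1 (−3.39 ± 0.21 log2), Sox2 (−2.65 ± 0.14) and Tdgf1 (−1.81 ± 0.28).

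**Figure D4:**
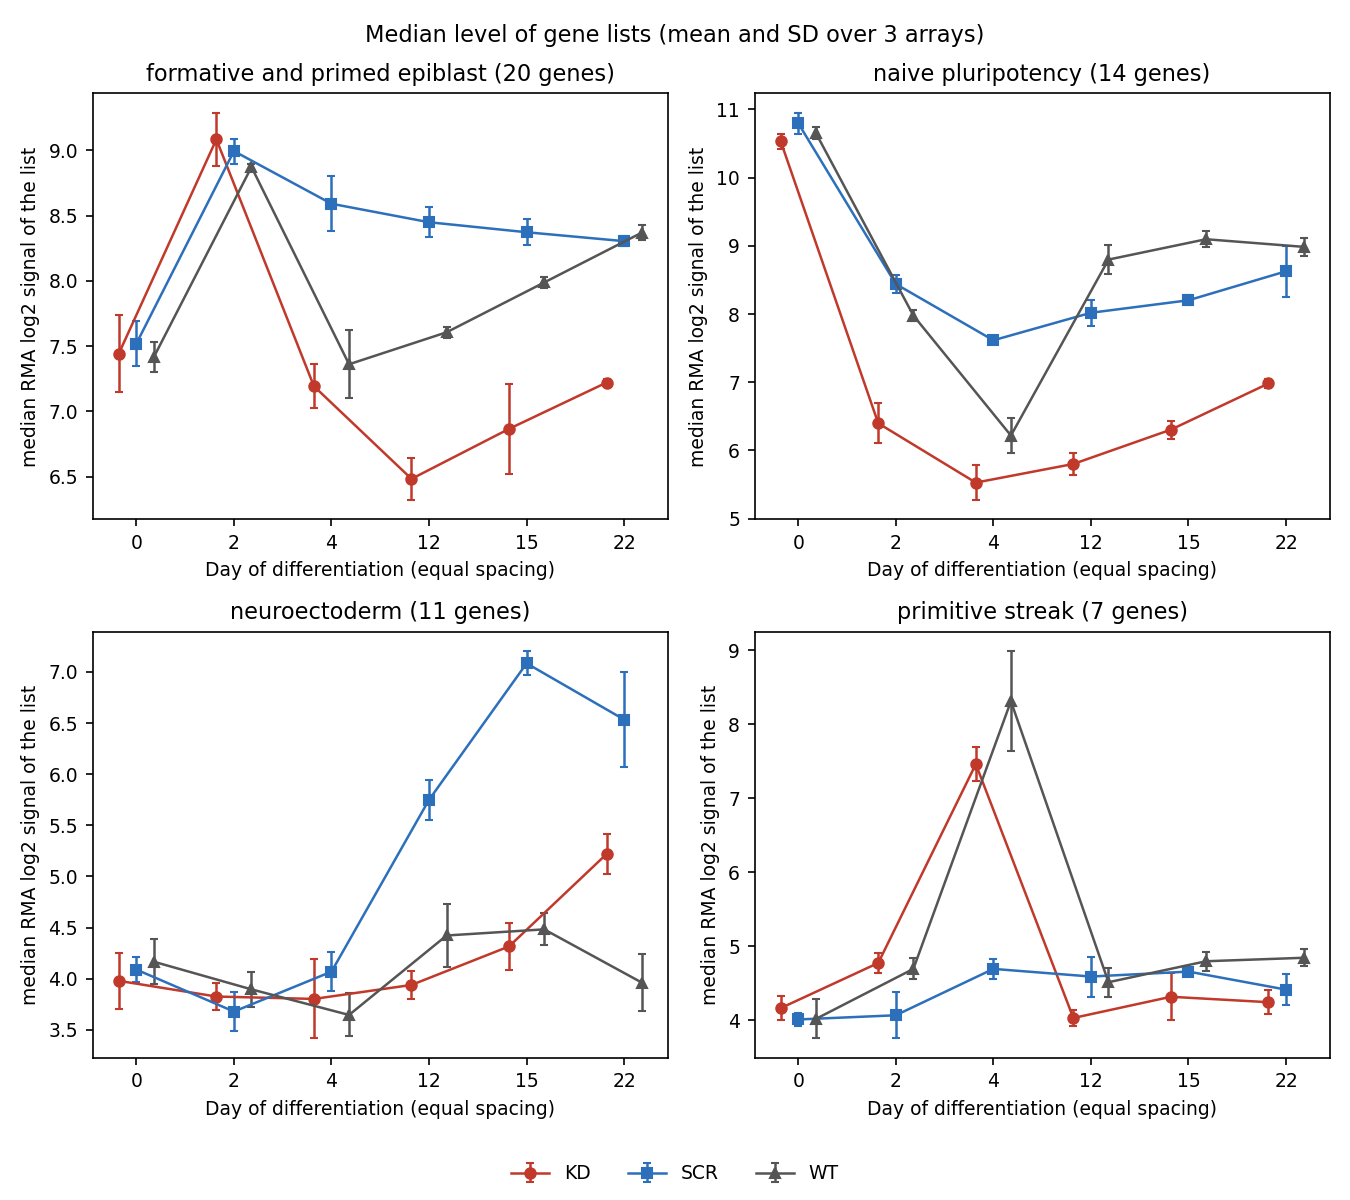
Median RMA log2 signal over the genes of each list (y axis) against day of differentiation (x axis, days equally spaced) in KD, SCR and WT cells, as the mean of 3 arrays with the SD as error bar. The primed epiblast list follows the 4 genes, naive genes are lower in KD EBs from day 2, neuroectoderm genes are highest in SCR EBs from day 12, and primitive streak genes peak at day 4 in KD and WT EBs.

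Markers of other cell types moved with the 4 genes on some days, and their part in the differences was not tested. At day 4, when Otx2, Fgf5, Pou3f1 and Zic2 were high in SCR EBs, 6 of 7 primitive streak genes were higher in KD than in SCR EBs, with a median of 1.68 log2. The summed linear signal of the list was 1420 to 2393 in KD arrays, 374.4 to 705.3 in SCR arrays and 2146 to 5811 in WT arrays. Evx1 (3.29 ± 0.20 log2), Mixl1 (3.22 ± 0.24) and Mesp1 (2.77 ± 0.22) led this list, and Gsc and Wnt3 were under the lower quartile in SCR EBs. Visceral endoderm is an extraembryonic tissue that also expresses Otx2. Its 8 listed genes summed to 1540 to 1718 in KD arrays, 184.4 to 236.8 in SCR arrays and 1464 to 1628 in WT arrays at day 4. Afp was under the lower quartile in every line, and Cubn in KD and SCR EBs. The difference between KD and SCR leaned on Sox17 (9.86 and 2.70 log2), with Foxa2 at 8.32 and 5.43, Hhex at 7.74 and 5.82 and Ttr at 6.33 and 5.10. Whether these genes were expressed in visceral endoderm or in other cells was not tested. At day 22 the sums were 20090 to 22820 in KD arrays, 1383 to 2715 in SCR arrays and 8626 to 12330 in WT arrays. The median level of the list was highest in WT EBs on that day, at 8.21 log2 in KD, 7.41 in SCR and 9.18 in WT EBs.

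Neuroectoderm, a tissue that later expresses Otx2, Pou3f1 and Zic2, was measured by 11 of 13 listed genes. At day 4 its sum was 385.3 to 438.4 in KD arrays, 408.3 to 464.2 in SCR arrays and 330.6 to 354.8 in WT arrays, and 1 of 11 genes, Pax6, was lower in KD than in SCR EBs (−2.87 ± 0.16 log2). Sox1, Lhx5, Emx2 and En1 were under the lower quartile in all 3 lines at day 4. From day 12 the list was high in SCR EBs, with sums of 1186 to 1390 at day 12, against 540.7 to 700.4 in KD arrays and 406.2 to 531.1 in WT arrays. Lower in KD than in SCR were 6, 9 and 5 of the 11 genes on days 12, 15 and 22. Against WT, where the 4 primed genes were lower in KD on days 12 and 15, 0 and 1 of the 11 were lower, beside 4.2% and 7.09% of all probe sets. The sums in KD arrays were above those in WT arrays (551.3 to 561.2 in KD and 330.1 to 410.9 in WT arrays at day 15). The median difference of the 11 genes was 0.20 log2 on day 12 and 0.24 on day 15, though the level of the middle gene of the list was lower in KD than in WT EBs on both days (3.94 and 4.42 log2 at day 12, 4.32 and 4.48 at day 15). On days 12 and 15 the summed neuroectoderm signal was thus lower in KD than in SCR EBs but not lower than in WT EBs, where sum and middle gene differed in direction. Any part of this tissue in the late differences of the 4 genes was not tested.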

How the data were processed

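Total RNA of ESCs and EBs was hybridised to Affymetrix Mouse 430 2.0 arrays. The authors deposited log2 values made by RMA (background correction, quantile normalization and probe summary), with Partek 6.6 and Expression Console per the labels. The table holds 30939 of the array's probe sets, so control probes and detection calls were not used here. Gene symbols came from the platform annotation (25596 probe sets with 1 symbol, 685 with several, 4658 with none). Lines and days were taken from the labels. Depth does not apply to arrays, and 3 arrays a group limit the precision.

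The deposited log2 values were fitted with limma 3.58.1 in R 4.3.3, with 1 mean for each of 18 groups, moderated statistics and Benjamini-Hochberg adjustment over all probe sets of a contrast. The threshold was adjusted p under 0.05 and 2-fold, as in the study's methods. The fit was tested on simulated data. The members and gene lists were chosen with earlier results of these data known. Named genes were the 4 members, Mageb16, the 3 genes most alike to each member by Pearson correlation of group means, measured paralogs, and up to 4 genes per list with the largest called change at day 2 or 4 in KD against SCR. Lists are described by counts and medians, and list sums are of linear signals. Alternatives covered normalization, dim probe sets, variance model, array weights, arrays in the fit, replicate block, the 2-fold rule, probe set choice and each array left out. The labels do not say what a replicate number marks. Same-numbered arrays of a pair of lines on a day had deviations from their group means that correlated at −0.40 to 0.50, over 0.1 in 32 of 54 pairs and in all 3 pairs of 6 of 18 comparisons, and in 41 pairs the own number correlated best. The fit without a block was kept, and the number was also fitted as a block over all days and within each day.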

Additional observations from a re-analysis of the deposited data

Results flagged for a closer look

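Changes between sampling days were compared between lines for each gene, as the difference between the step in KD EBs and the step in the other line, and 13 of these differences passed the threshold in limma. Against SCR, the step between days 2 and 4 was lower in KD for all 4 genes: Pou3f1 by −5.00 ± 0.33 log2 (SE, adjusted p = 5.69e-16), Zic2 by −3.70 ± 0.43 (adjusted p = 3.66e-09), Fgf5 by −3.18 ± 0.31 (adjusted p = 6.18e-11) and Otx2 by −2.47 ± 0.34 (adjusted p = 1.64e-07). In the next step, between days 4 and 12, Otx2 differed by −1.36 ± 0.34 (adjusted p = 0.00131) and Pou3f1 by 1.91 ± 0.33 (adjusted p = 7.42e-06), in opposite directions. Between days 12 and 22, Zic2 differed by 1.53 ± 0.43 (adjusted p = 0.00661) and Pou3f1 by 1.29 ± 0.33 (adjusted p = 0.00263).

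Against WT, the step between days 4 and 12 was lower in KD for all 4 genes: Otx2 by −3.29 ± 0.34 log2 (adjusted p = 4.81e-10), Fgf5 by −2.17 ± 0.31 (adjusted p = 5.95e-07), Pou3f1 by −1.47 ± 0.33 (adjusted p = 0.000437) and Zic2 by −1.24 ± 0.43 (adjusted p = 0.0208). Between days 12 and 22 the KD step of Zic2 was larger than the WT step by 1.50 ± 0.43 (adjusted p = 0.00527). With 3 arrays a group, no group was large enough to be tested for outlying arrays.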

How the results depend on the processing

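Of 3792 values of single tests of the 4 genes recomputed under another setting, 3705 kept their direction and their side of the threshold, 60 lost the call, 25 gained it and 2 changed sign. The sign changes were the KD values of Fgf5 on days 15 and 22 against day 0 with its dimmer probe set (−0.0767 and −0.0533 log2). Of 114 calls, 33 were lost under at least 1 setting other than an array left out, and 9 when some single array was left out. Without all replicate 3 arrays, a setting chosen after seeing the data, 5 in place of 8 steps differed between KD and SCR and 2 in place of 5 between KD and WT. With fewer arrays the spread is estimated from fewer values. Leaving out single arrays gave 17 to 20 calls for KD against SCR (18 with all arrays), 10 to 11 for KD against WT (10), 5 to 7 for SCR against WT (6), 20 to 22, 23 to 25 and 21 to 22 for changes by day in KD (21), SCR (25) and WT (21), 8 to 9 for KD against SCR steps (8) and 4 to 5 for KD against WT steps (5). With the dimmer probe sets, a setting also added after seeing the data, the KD against SCR calls were 13. With the replicate number as a block the counts of calls were 18, 10, 6, 21, 25, 21, 8 and 5 in the same order, as without it, also when the block was set within each day, a fit added after seeing the data. Neither block changed the call of a single gene. Probe sets near background, such as Fgf5 at day 0, give differences that RMA compresses, and the number of arrays limits the precision of all values.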
